A study of Bos taurus with 6 samples.

Results

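The 36 genes described here encode proteins of the peroxisome, and were taken as the rows of the count table whose gene name equals a name on a fixed list, 1 row per name, of 36577 loci in all. They are 13 peroxins, the PEX proteins that build the organelle, and 22 enzymes with 1 membrane channel, PXMP2. Every one of the 36 also carries the peroxisome pathway in the annotation of the deposited table. RNA was sequenced from primary hepatocytes, labelled wild type, of healthy female calves that were 1 day old and fasted, after culture in medium with fetal serum. The cells of 3 libraries were exposed to the saturated fatty acid palmitic acid (PA) at 400 µmol/L together with 200 µmol/L 3-IAA, indole-3-acetic acid, which arises from tryptophan (PA + 3-IAA). Those of the other 3 were exposed to PA at that dose and to the solvent DMSO (PA + DMSO). PA was thus present in both groups, and no library without PA is compared here. The comparison asks what 3-IAA changes in hepatocytes loaded with PA. Whether the replicates of a group were different calves or dishes of 1 culture is not in the labels, so the p-values reflect the spread among these libraries alone, which may be technical.

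Peroxisomes are small organelles without DNA of their own, and all their matrix proteins are made in the cytosol and imported in a folded state. In liver they shorten very long chain and branched fatty acids, finish the side chain of bile acids, start the synthesis of ether lipids, and oxidise D-amino acids, glyoxylate precursors and purines. Many of these oxidases release hydrogen peroxide, which catalase removes. In rodents, peroxisome number and several of the oxidation enzymes rise when the fatty acid receptor PPARA is activated.

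With 3-IAA, transcripts of nearly all peroxisomal enzymes of fatty acid oxidation were higher, by up to 2.12-fold for SCP2 and ECI2. Of the enzymes of ether lipid synthesis none was called higher and FAR1 fell 1.67-fold. Among the peroxins, PEX2, PEX13 and PEX3 were higher and PEX5 and PEX19 lower, and the others were not called. All 36 genes passed the filter on low counts. In edgeR's quasi-likelihood test, 24 of them had a Benjamini-Hochberg adjusted p under 0.05, of which 19 were higher and 5 lower with 3-IAA. The background is high: 51.2% of the 15576 genes tested were called, 25.4% higher and 25.8% lower. Of the 13 peroxins 3 were called higher (23.1%) and 2 lower (15.4%), and their median log2 fold change was 0.053, against 0.0029 over all genes tested. The share of peroxins called higher was close to that of all genes, so this count is not a result about peroxins. Of the other 23 genes 16 were called higher (69.6%) and 3 lower (13%), with a median of 0.54. Within these, the 14 enzymes of fatty acid oxidation and ether lipid synthesis had 10 higher, 3 lower and a median of 0.52. The contrast between peroxins and enzymes is given by counts and medians, and the difference between the lists was not tested.

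**Figure D1:**
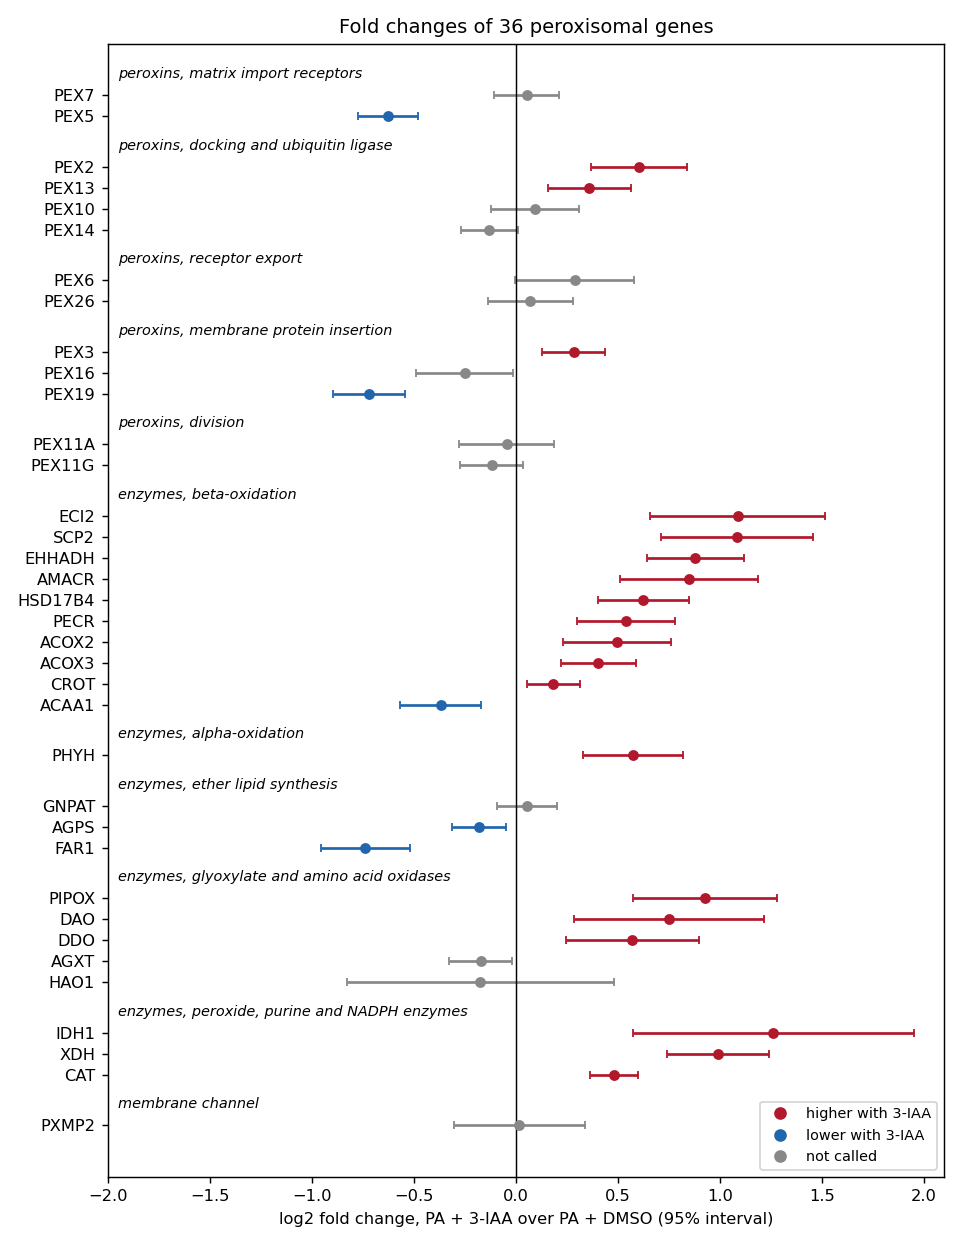
Fitted log2 fold changes of the 36 genes (horizontal axis, PA + 3-IAA over PA + DMSO) with 95% intervals, grouped by role; red points were called higher, blue points lower and grey points not called at an adjusted p under 0.05. All beta-oxidation enzymes lie right of 0 except ACAA1, while the peroxins scatter on both sides between -0.72 and 0.61.

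The third PA + DMSO library differed from the other two of its group and lay between them and the PA + 3-IAA libraries. On the first principal component of log2 CPM (read counts scaled to library size), with 92.4% of the variance, replicate 3 had -12.7, against -42.6 and -42.3 for the other PA + DMSO libraries and 32.1 to 32.8 for PA + 3-IAA. The same position was seen in the genes described here: in 22 of the 24 called, its log2 CPM lay between the mean of the other PA + DMSO libraries and the mean of PA + 3-IAA, with CROT and DDO as the exceptions. This held for 90.5% of all called genes. Without this library 19 of the 36 were again called higher (3 peroxins and 16 enzymes) and 6 lower, PEX16 being the addition. The background without it was 60.5%, with 30.9% of genes higher and 29.7% lower. Total counts per library ranged from 16580723 to 22562450.

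Markers of the labelled cell type were abundant. The 11 hepatocyte markers summed to 20713 to 22883 TPM (the authors' transcript abundance, scaled by length and library) in PA + 3-IAA libraries and 14742 to 16415 TPM in PA + DMSO libraries, 9 of 11 were called higher and none lower, and none was at 0. The lowest was TAT, at 5.41 ± 1.75 TPM in PA + 3-IAA and 4.33 ± 1.81 TPM in PA + DMSO (SD, n = 3 each). Markers of other liver cells were present too. For 8 endothelial markers the sum was 48.6 to 55.9 TPM in PA + 3-IAA and 18.3 to 33.9 TPM in PA + DMSO (4 of 7 tested higher, 6 without PA + DMSO replicate 3, median log2 1.02). For 8 macrophage markers it was 112 to 119 TPM in PA + 3-IAA and 54.4 to 76 TPM in PA + DMSO (5 of 8 higher, median 0.48). CD14 made up most of this difference, at 46.7 ± 0.996 TPM in PA + 3-IAA and 14.1 ± 9.16 TPM in PA + DMSO, and CD163, the lowest, was among those not called. The 8 stellate and fibroblast markers summed to 2243 to 2331 TPM in PA + 3-IAA and 1273 to 1766 TPM in PA + DMSO (3 higher and 1 lower of 7, median 0.030). ACTA2, the smooth muscle actin, made up most of that difference (2.24-fold higher), and the other 7 summed to 894 to 933 TPM in PA + 3-IAA and 814 to 946 TPM in PA + DMSO. The 6 cholangiocyte markers summed to 1332 to 1390.0 TPM in PA + 3-IAA and 673 to 858 TPM in PA + DMSO (2 higher and 1 lower of 6, median -0.020). Here SPP1, osteopontin, made up most of the difference (1.82-fold higher), and the other 5 summed to 140.0 to 165 TPM in PA + 3-IAA and 120.5 to 129.9 TPM in PA + DMSO, with SOX9 lower by 1.98-fold. The 6 leukocyte markers had sums of 4.69 to 6.53 TPM in PA + 3-IAA and 4.91 to 5.91 TPM in PA + DMSO, with MS4A1 at 0 in all 6 libraries and CD79A at 0 in the 3 PA + DMSO libraries. Most of these sums was PTPRC, the pan-leukocyte CD45, at 4.2, 3.23 and 3.32 TPM in PA + 3-IAA and 3.96, 4.33 and 3.67 TPM in PA + DMSO; neither it nor NKG7, the other marker tested, was called. Most hepatocyte, endothelial and macrophage markers tested were thus called higher along with the peroxisomal enzymes, against 25.4% of all genes tested. The part of these markers' cells in the enzyme result was not tested. In bulk RNA, more cells of a type and more RNA per cell cannot be told apart.

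Nearly all beta-oxidation enzymes rose. Of 10 members 9 were called higher and 1 lower, with a median log2 fold change of 0.58. The acyl-CoA oxidases carry out the first step and pass electrons to oxygen. ACOX2, which acts on bile acid intermediates and branched chains, had 11.4, 11.6 and 10.2 CPM in the PA + 3-IAA libraries and 7.74, 6.89 and 8.85 CPM in the PA + DMSO libraries. All 3 PA + 3-IAA values lay above the highest PA + DMSO value, a 1.41-fold rise (log2 0.49, SE 0.12, adjusted p = 0.0067). ACOX3, the oxidase for branched chains such as pristanic acid, had 28.4, 29.3 and 27.1 CPM in PA + 3-IAA and 21.4, 19.4 and 23.3 CPM in PA + DMSO, without overlap (1.32-fold, adjusted p = 0.00289 by edgeR).

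The next steps are run by the bifunctional enzymes EHHADH and HSD17B4, which hydrate the acyl chain and oxidise it again. EHHADH, known in rodents as a strong target of PPARA, had 19, 17.5 and 16.7 CPM in PA + 3-IAA against 8.98, 8.96 and 10.9 CPM in PA + DMSO. HSD17B4, which also takes the branched and bile acid chains, had 131, 129.9 and 137 CPM in PA + 3-IAA against 75.7, 81.1 and 101 CPM in PA + DMSO. Both were higher in every PA + 3-IAA library than in any PA + DMSO library. EHHADH rose 1.84-fold (log2 0.88, SE 0.11, adjusted p = 0.0002) and HSD17B4 1.54-fold (log2 0.62, SE 0.098, adjusted p = 0.000884). Without PA + DMSO replicate 3 the rises were 1.98-fold for EHHADH and 1.69-fold for HSD17B4.

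The thiolases, which cut off the shortened chain, went in opposite directions. SCP2, whose long product is the thiolase for branched and bile acid chains and whose short product is a lipid carrier, had 311, 309.6 and 329 CPM in PA + 3-IAA and 135, 123 and 190.5 CPM in PA + DMSO. This was a 2.12-fold rise (log2 1.08, SE 0.16, adjusted p = 0.00135), and 2.45-fold without PA + DMSO replicate 3. The gene-level count does not separate the SCP2 products. ACAA1, the thiolase for straight chains, had 29.9, 28.1 and 28.5 CPM in PA + 3-IAA and 42.3, 34.8 and 34.4 CPM in PA + DMSO. Its values did not overlap between the groups either, and it fell 1.29-fold (log2 -0.37, SE 0.088, adjusted p = 0.00663). Within each library, the SCP2 TPM divided by the ACAA1 TPM was 5.82, 6.13 and 6.42 in PA + 3-IAA and 1.84, 2.0 and 3.09 in PA + DMSO. This ratio does not depend on how libraries are scaled. The pair was chosen after its values were seen, and the ratio is given without a test.

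Accessory enzymes of the same pathway were also higher. ECI2, an isomerase that shifts double bonds and is found in both mitochondria and peroxisomes, had 34.7, 34.9 and 35 CPM in PA + 3-IAA and 14.2, 12.8 and 22 CPM in PA + DMSO, a 2.12-fold rise (log2 1.09, SE 0.18, adjusted p = 0.00233). AMACR, the racemase that prepares branched chains for oxidation, had 12.6, 14.6 and 13.7 CPM in PA + 3-IAA and 6.56, 6.52 and 9.56 CPM in PA + DMSO (1.8-fold, adjusted p = 0.00142 by edgeR). In both genes PA + DMSO replicate 3 was the highest of its group and the groups stayed apart. The reductase PECR averaged 11.8 ± 0.807 CPM in PA + 3-IAA and 8.07 ± 0.657 CPM in PA + DMSO (SD, n = 3 each) and rose 1.45-fold. CROT, which converts shortened acyl-CoA to carnitine esters for export to mitochondria, had the smallest change called among these enzymes, at 96.5 ± 2.66 CPM in PA + 3-IAA and 85 ± 3.62 CPM in PA + DMSO (log2 0.18, adjusted p = 0.0233 by edgeR). Its call was lost without PA + 3-IAA replicate 1 (log2 0.19), PA + 3-IAA replicate 3 (0.16) or PA + DMSO replicate 1 (0.18).

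Alpha-oxidation removes a single carbon from phytanic acid, a branched fatty acid that in ruminants comes from the chlorophyll of forage. PHYH, which hydroxylates phytanoyl-CoA in its first step, had 78.4, 81.3 and 80.1 CPM in PA + 3-IAA and 48.8, 47.9 and 64.5 CPM in PA + DMSO. Its lowest PA + 3-IAA library was above PA + DMSO replicate 3, the highest of that group, and the rise was 1.49-fold (log2 0.57, SE 0.11, adjusted p = 0.00242).

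**Figure D2:**
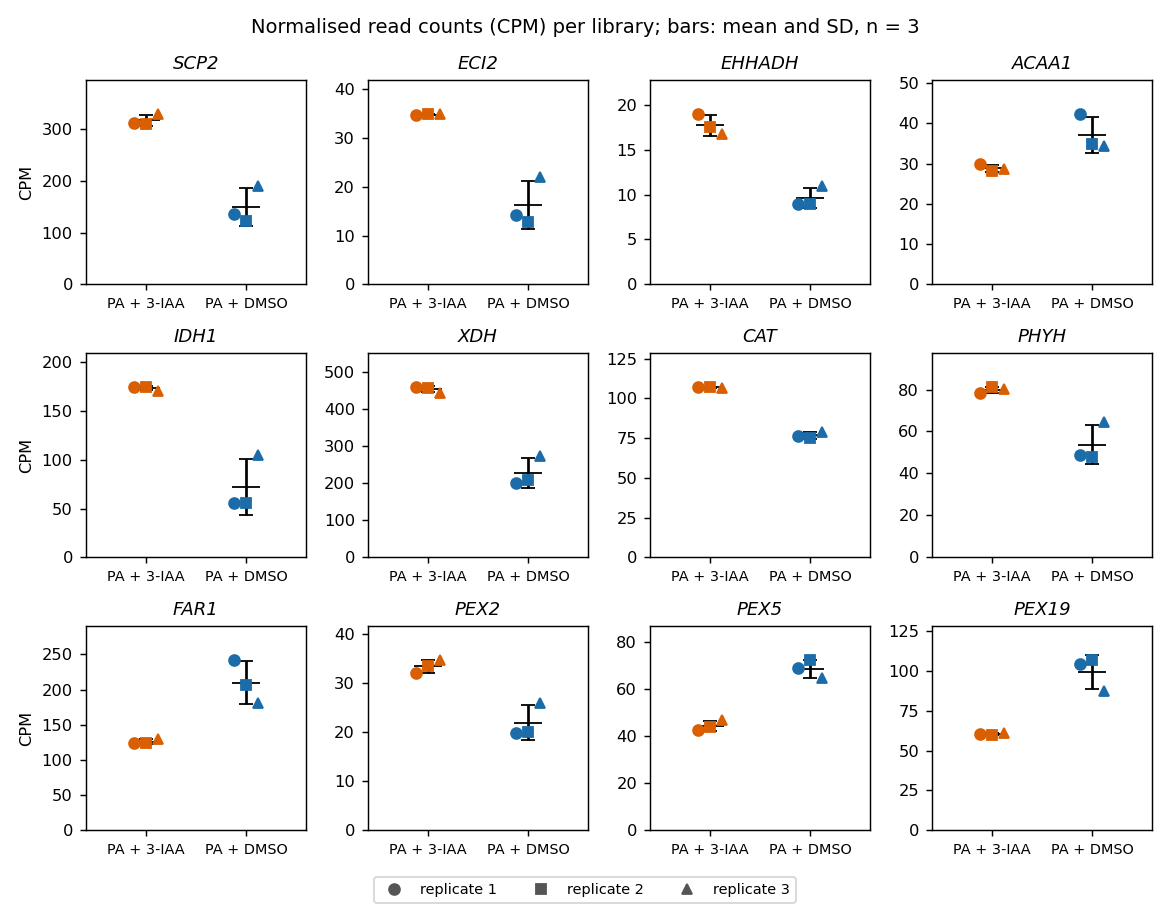
CPM (vertical axis, from 0) of 12 of the genes in each library of PA + 3-IAA (orange) and PA + DMSO (blue), with marker shapes for replicates 1 to 3 and bars for the mean and SD (n = 3). The groups do not overlap in any of the 12 genes, and PA + DMSO replicate 3 is the library of its group nearest to the PA + 3-IAA mean in all 12.

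Ether lipid synthesis showed no rise. None of its 3 enzymes was called higher and 2 were called lower. FAR1, which makes the fatty alcohol and limits the rate of the pathway, had 124, 124 and 129.9 CPM in PA + 3-IAA and 242, 206 and 181 CPM in PA + DMSO. All PA + 3-IAA values were below the lowest PA + DMSO value, and FAR1 fell 1.67-fold (log2 -0.74, SE 0.097, adjusted p = 0.000355), the largest fall among the 36 genes by a margin over PEX19 that is below the SE. AGPS, which inserts the ether bond, averaged 74.8 ± 1.45 CPM in PA + 3-IAA and 84.8 ± 4.55 CPM in PA + DMSO (SD, n = 3 each), a log2 fold change of -0.18 (adjusted p = 0.0276 by edgeR). DESeq2 did not call AGPS (-0.18), and the call was lost when libraries were scaled by their totals (-0.11) and when genes were not filtered (-0.17). It was also lost without any PA + 3-IAA library (log2 -0.19, -0.16 and -0.19 without replicates 1, 2 and 3), without PA + DMSO replicate 1 (-0.14) or without PA + DMSO replicate 2 (-0.18). GNPAT, the acyltransferase that starts the pathway in the peroxisome, had 43.8 ± 2.74 CPM in PA + 3-IAA and 42.2 ± 0.955 CPM in PA + DMSO. It was not called (log2 0.053, 95% interval -0.093 to 0.20), and its groups overlapped.

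The ratio of PHYH to FAR1 in TPM within each library, also chosen after the values were seen and not tested, was 2.42, 2.5 and 2.49 in PA + 3-IAA and 0.89, 1.0 and 1.57 in PA + DMSO. Each PA + 3-IAA ratio was above each PA + DMSO ratio, of which replicate 3 had the highest. This separation follows from PHYH and FAR1, which each separated the groups in opposite directions, and adds nothing to their results. The same holds for the other TPM ratios given here, which also pair a gene called higher with a gene called lower.

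CAT, XDH and IDH1 were all higher. CAT, the catalase that breaks down hydrogen peroxide, had 107, 107 and 107 CPM in PA + 3-IAA and 76.3, 75.1 and 79 CPM in PA + DMSO. The libraries of each group lay close together, and the 1.39-fold rise (log2 0.48, SE 0.053, adjusted p = 0.000139) was 1.41-fold without PA + DMSO replicate 3. XDH, which oxidises purines to uric acid and is largely cytosolic, had 460.4, 457 and 445 CPM in PA + 3-IAA and 201, 210.3 and 274 CPM in PA + DMSO, a 1.99-fold rise (log2 0.99, SE 0.11, adjusted p = 0.000201). IDH1, which makes NADPH in both the cytosol and the peroxisome, had 175, 174 and 170.5 CPM in PA + 3-IAA and 55.7, 55.9 and 105 CPM in PA + DMSO. It had the largest fold change of the 36 genes, 2.4-fold (log2 1.26, SE 0.27, adjusted p = 0.0131), and also the widest interval of any called one, 0.57 to 1.95 on the log2 scale. PA + DMSO replicate 3 lay far above the other libraries of its group here, and without it the rise was 3.11-fold.

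The oxidases of amino acids were scarce and higher, while the glyoxylate enzymes were not called. PIPOX, which oxidises pipecolic acid and sarcosine, had 4.99, 4.04 and 4.8 CPM in PA + 3-IAA and 2.61, 2.19 and 2.43 CPM in PA + DMSO, a 1.9-fold rise (log2 0.93, SE 0.16, adjusted p = 0.00111). DAO, the oxidase of neutral D-amino acids, had 4.82, 4.04 and 5.73 CPM in PA + 3-IAA and 3.01, 2.07 and 3.49 CPM in PA + DMSO (1.68-fold, adjusted p = 0.0132 by edgeR), and DDO, the oxidase of D-aspartate, had 5.5, 5.83 and 4.57 CPM in PA + 3-IAA and 3.75, 3.63 and 3.34 CPM in PA + DMSO (1.48-fold, adjusted p = 0.00913 by edgeR). The groups did not overlap in these 3 genes, which rest on 33 to 129 counts per library. Leaving out PA + 3-IAA replicate 3 ended the call of DAO (log2 0.62). AGXT, the aminotransferase that turns glyoxylate into glycine, had 56.9, 51.9 and 49.9 CPM in PA + 3-IAA and 57.6, 58.5 and 62.8 CPM in PA + DMSO. All its PA + 3-IAA values were lower, but it did not pass the test (log2 -0.17, adjusted p = 0.0586 by edgeR), except without PA + 3-IAA replicate 1 (log2 -0.23). HAO1, the glycolate oxidase of liver, had the fewest counts of the 36 genes, with 16 to 26 counts in PA + 3-IAA and 12 to 26 counts in PA + DMSO libraries. Its log2 fold change was -0.17 with a 95% interval of -0.83 to 0.48, and a change within this range was not detectable at this depth. PXMP2, a channel for small solutes in the peroxisomal membrane, was not called (log2 0.017, 95% interval -0.31 to 0.34).

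Of the peroxins that import matrix proteins, the main receptor PEX5 fell and the docking protein PEX13 rose. PEX5, the receptor that recognises the C-terminal signal of most matrix enzymes, had 42.4, 44 and 46.7 CPM in PA + 3-IAA and 68.8, 72.4 and 64.8 CPM in PA + DMSO. Each PA + 3-IAA value was below each PA + DMSO value, and the fall was 1.55-fold (log2 -0.63, SE 0.066, adjusted p = 0.00011). PEX7, the receptor for the N-terminal signal, had 25 ± 1.01 CPM in PA + 3-IAA and 24 ± 1.07 CPM in PA + DMSO (SD, n = 3 each) and was not called (log2 0.053, 95% interval -0.11 to 0.21).

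PEX13 and PEX14 form the docking site for loaded receptors at the membrane. PEX13 had 54.4, 57.8 and 56.9 CPM in PA + 3-IAA and 44.4, 37.7 and 49.4 CPM in PA + DMSO, and rose 1.28-fold (log2 0.36, SE 0.091, adjusted p = 0.00878). PEX14 had 29.7, 31 and 29.2 CPM in PA + 3-IAA and 32.6, 33.6 and 32.3 CPM in PA + DMSO. Its groups did not overlap, but the difference did not pass the test (log2 -0.13, adjusted p = 0.108 by edgeR). The TPM ratio of PEX13 to PEX5 within each library was 1.11, 1.14 and 1.06 in PA + 3-IAA and 0.561, 0.45 and 0.663 in PA + DMSO, a pair chosen after its values were seen and not tested.

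PEX2 and PEX10 are RING proteins of the ubiquitin ligase that marks receptors for recycling. PEX2 had 32.2, 33.5 and 34.8 CPM in PA + 3-IAA and 19.8, 20.1 and 26 CPM in PA + DMSO. It rose 1.52-fold (log2 0.61, SE 0.10, adjusted p = 0.00122), the largest rise of a peroxin, and 1.68-fold without PA + DMSO replicate 3. PEX10 averaged 13.8 ± 1.1 CPM in PA + 3-IAA and 13 ± 0.737 CPM in PA + DMSO and was not called (log2 0.093, 95% interval -0.12 to 0.31). PEX6, an ATPase that pulls the marked receptor out of the membrane, and PEX26, its anchor, were not called either, with log2 fold changes of 0.29 (95% interval -0.0027 to 0.58) and 0.070 (-0.14 to 0.28). PEX6 was called higher with scaling by library total (log2 0.36).

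Insertion of membrane proteins uses PEX19, which carries them from the cytosol, PEX3, which receives PEX19 at the membrane, and PEX16, which helps to bring PEX3 there. PEX19 had 60.5, 59.5 and 60.7 CPM in PA + 3-IAA and 104, 107 and 87.1 CPM in PA + DMSO. It was the most abundant peroxin per length in both groups and fell 1.65-fold (log2 -0.72, SE 0.079, adjusted p = 0.000134). PEX3 had 31.7, 32.8 and 32.4 CPM in PA + 3-IAA and 24.9, 26.6 and 28.2 CPM in PA + DMSO and rose 1.22-fold (log2 0.28, SE 0.070, adjusted p = 0.00757). The TPM ratio of PEX3 to PEX19, again chosen after the values were seen and not tested, was 0.5, 0.526 and 0.521 in PA + 3-IAA and 0.231, 0.237 and 0.341 in PA + DMSO. PEX16 had 7.42, 8.21 and 7.5 CPM in PA + 3-IAA and 9.57, 9.46 and 8.49 CPM in PA + DMSO. It was not called over the 6 libraries (log2 -0.25, adjusted p = 0.0747 by edgeR), and was called lower without PA + DMSO replicate 3 (log2 -0.30).

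PEX11A and PEX11G, which stretch the organelle before it divides, were not called. In rodents PEX11A responds to activators of PPARA. Here PEX11A had a log2 fold change of -0.045 (95% interval -0.28 to 0.19) and PEX11G of -0.12 (-0.27 to 0.036). The deposited TPM of PEX11A was more uneven than its counts, with 11, 7.89 and 9.17 TPM on 250, 231 and 256 counts in PA + 3-IAA and 12.2, 13.7 and 6.73 TPM on 249, 185 and 205 counts in PA + DMSO. In RefSeq's cattle annotation (ARS-UCD2.0) the PEX11A locus overlaps that of PLIN1, a lipid droplet gene, and the use of strand in counting was not given in the sources used here, so reads of the pair may not be separable. The loci of PEX6, PEX26, PEX11G, HSD17B4, ECI2, PECR, AGPS and FAR1 also overlap another locus in that annotation.

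**Figure D3:**
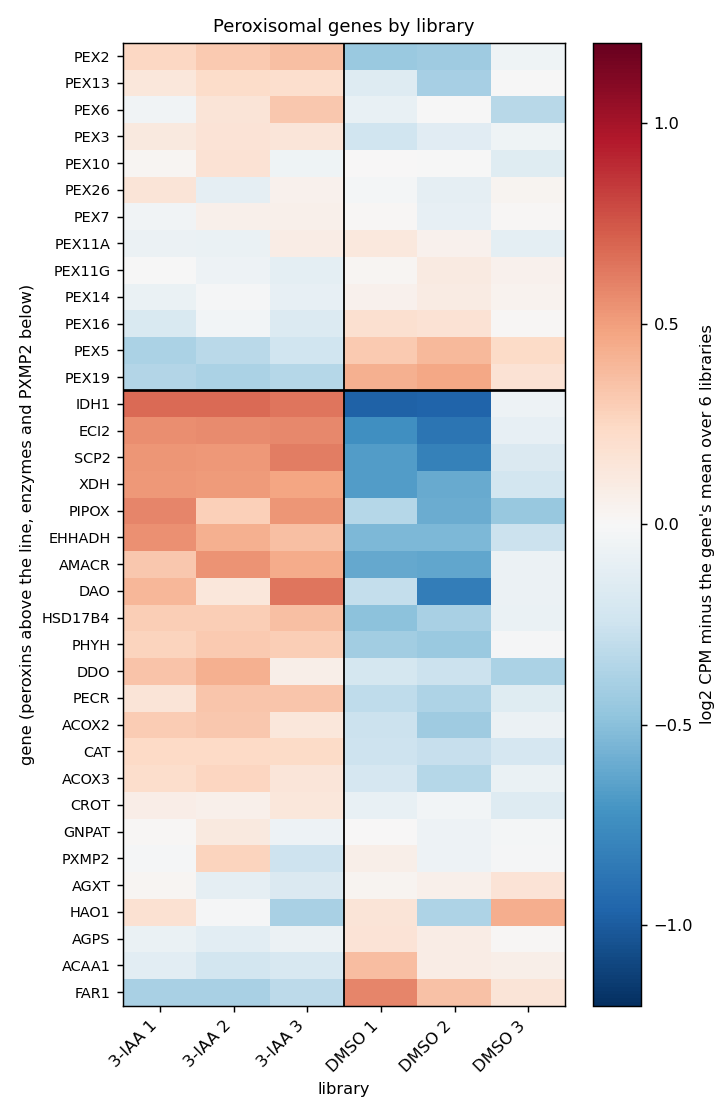
Log2 CPM of each of the 36 genes minus its mean over the 6 libraries (colour), with libraries in columns and genes in rows, peroxins above the line and enzymes with PXMP2 below it, each ordered by fold change. Most enzymes are high in the PA + 3-IAA columns and low in PA + DMSO replicates 1 and 2, with replicate 3 in between, while most peroxins show pale colours throughout.

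Groups that did not overlap in CPM were found for 28 of the 36 genes, namely 8 of 13 peroxins (3 above and 5 below PA + DMSO) and 20 of the other 23 (16 above and 4 below). Over all genes tested 62.5% did not overlap, with 31.5% above and 31% below. For peroxins the share without overlap, 8 of 13, was thus near the background.

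The levels of the genes, compared per length in TPM, put enzymes at the top. SCP2 was highest, with 199 ± 8.0 TPM in PA + 3-IAA and 91.2 ± 20.8 TPM in PA + DMSO (SD, n = 3 each). XDH followed at 161 ± 5.73 TPM in PA + 3-IAA and 77.6 ± 12.8 TPM in PA + DMSO. In PA + DMSO the SDs of SCP2 and XDH overlapped, so their order there is not resolved. IDH1 was the third most abundant with 3-IAA at 125 ± 3.41 TPM, and only the ninth in PA + DMSO at 50.0 ± 19.6 TPM. PEX19 was the ninth with 3-IAA at 45.2 ± 0.227 TPM and the third in PA + DMSO at 71.6 ± 8.92 TPM, where it did not differ beyond the spread from PHYH at 65.8 ± 11.4 TPM. At the low end, PIPOX, DAO and HAO1 each averaged under 3 TPM in both groups and, in PA + DMSO, lay within their SDs of each other.

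Summed over the 13 peroxins, transcript abundance was 253 ± 3.29 TPM in PA + 3-IAA and 270.0 ± 9.27 TPM in PA + DMSO (SD, n = 3 each). The other 23 genes summed to 1080.3 ± 23.3 TPM in PA + 3-IAA and 701 ± 75.2 TPM in PA + DMSO, 1.54 times as much with 3-IAA. In that sum, CAT, XDH and IDH1 made up 366 TPM in PA + 3-IAA and 183 TPM in PA + DMSO, and beta-oxidation 446 TPM in PA + 3-IAA and 269 TPM in PA + DMSO. Most of the difference between the groups lay in SCP2 (199 TPM in PA + 3-IAA against 91.2 TPM in PA + DMSO), XDH (161 against 77.6 TPM) and IDH1 (125 against 50.0 TPM). Of these, XDH is largely cytosolic and IDH1 is shared with the cytosol. The ether lipid sum went the other way, with 94.7 ± 2.5 TPM in PA + 3-IAA and 113 ± 11.1 TPM in PA + DMSO. FAR1 made up most of that difference (41.4 TPM in PA + 3-IAA against 58.7 TPM in PA + DMSO). AGPS had 23.4 against 26.9 TPM, and GNPAT was not lower, at 29.9 against 27.7 TPM. These sums are descriptions and carry no test. The deposited annotation places 150 tested loci on the peroxisome pathway map, the 36 genes included. Of these 150, 72 were called higher and 24 lower, with a median log2 fold change of 0.24. Over all genes tested 25.4% were called higher and 25.8% lower, with a median of 0.0029.

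**Figure D4:**
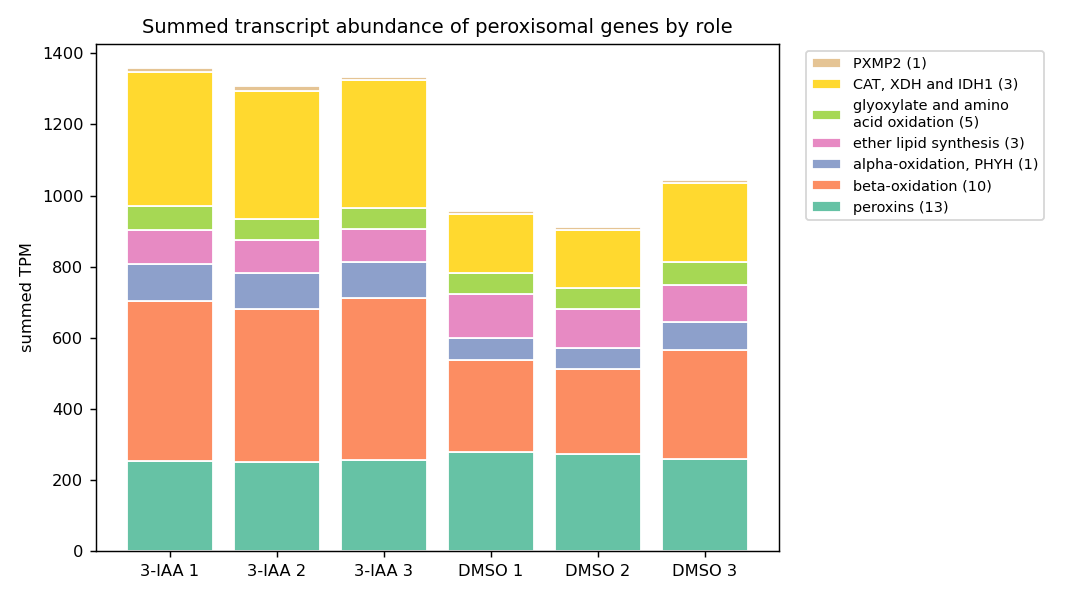
Summed TPM (vertical axis) of the 36 genes in each library, PA + 3-IAA at the left and PA + DMSO at the right, stacked by role with the number of genes in brackets. The totals range over 1308 to 1359 TPM in PA + 3-IAA and 912 to 1045 TPM in PA + DMSO, and the peroxin layer is of similar height in all 6 libraries.

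A list of 48 other peroxisomal genes, taken for their known place in the organelle, also held more rises than falls. Over all genes tested 25.4% were called higher and 25.8% lower. Of 45 tested in this list, 26 were called higher (57.8%) and 6 lower (13.3%), with a median of 0.35 (29 and 6 without PA + DMSO replicate 3). The 4 rises with the smallest p were in EPHX2, an epoxide hydrolase of fatty acids (2.22-fold), LONP2, the peroxisomal Lon protease (1.64-fold), ECH1, an isomerase of unsaturated chains (1.55-fold), and PAOX, a polyamine oxidase (1.42-fold). EPHX2 averaged 25.2 ± 0.244 CPM in PA + 3-IAA and 11.3 ± 2.08 CPM in PA + DMSO (SD, n = 3 each; log2 1.15, SE 0.12, adjusted p = 0.000101). MPV17L fell 5.58-fold, to 9.06 ± 0.293 CPM in PA + 3-IAA against 50.7 ± 15.1 CPM in PA + DMSO (log2 -2.48, SE 0.25, adjusted p = 0.000478). HAO2, an oxidase of hydroxy acids, fell 2.55-fold, HSDL2 1.42-fold and the mevalonate kinase MVK 1.42-fold.

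Mitochondrial beta-oxidation takes the shorter chains that peroxisomes deliver. Against 25.4% higher and 25.8% lower over all genes tested, 12 of its 15 tested genes were higher (80%) and 1 lower (6.67%). Their median was 0.33 (13 higher and 1 lower without PA + DMSO replicate 3). The 4 rises with the smallest p were in ACADM (1.68-fold), DECR1 (2.04-fold), ACADL (1.43-fold) and HADH (1.69-fold), and CPT1A fell 1.37-fold. The difference between the peroxisomal and mitochondrial lists was not tested.

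The list of PPARA, its partners and its targets outside the peroxisome held more falls than rises. Of 16 tested, 3 were called higher and 8 lower, with a median of -0.22, and without PA + DMSO replicate 3 the numbers were 7 and 8. The falls were in partners (NCOR1, NCOA1, EP300 and PPARGC1A) as well as targets (PLIN2, PDK4, FGF21 and CPT1A), so their number is not a count of targets. PPARA itself had 46.6, 42.5 and 50.5 CPM in PA + 3-IAA and 41.1, 38.2 and 39.2 CPM in PA + DMSO (1.18-fold higher, adjusted p = 0.0241 by edgeR), and its partner RXRA rose 1.24-fold. The target VNN1, a pantetheinase, rose 1.59-fold. In contrast the lipid droplet protein PLIN2 fell 5.42-fold, the kinase PDK4 4.9-fold, the hormone FGF21 9.76-fold and the coactivator PPARGC1A 3.53-fold. ANGPTL4, an inhibitor of lipoprotein lipase named here after its values were seen, had 291, 291 and 290.3 CPM in PA + 3-IAA and 31.2, 41.7 and 218 CPM in PA + DMSO. Its groups did not overlap and its fold change of 2.99 was the largest above 1 in this list, but it was not called (log2 1.58, SE 0.86, adjusted p = 0.201). Without PA + DMSO replicate 3 ANGPTL4 was called, 8.05-fold higher. Also called higher only without that library were PPARGC1B (2.57-fold, on few counts), CREB3L3 (1.25-fold) and FABP1 (1.21-fold). The 5 genes listed for pexophagy, the removal of peroxisomes by autophagy, were not split by whether they promote or restrain it. Of these, NBR1, SQSTM1 and USP30 were called higher by 1.2-fold, 1.25-fold and 1.18-fold, and BNIP3L was called lower by 1.93-fold. Those shares were 60% and 20% of only 5 genes, against 25.4% and 25.8% over all genes tested. MARCHF5 was not called (log2 0.057, 95% interval -0.081 to 0.19).

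**Figure D5:**
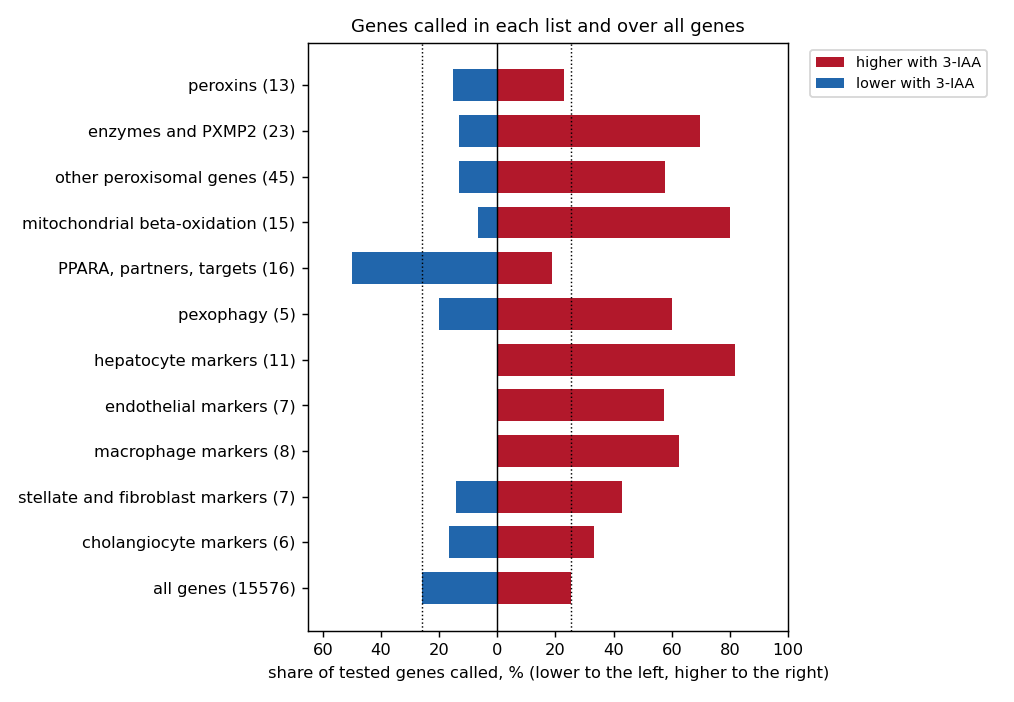
Share of tested genes (horizontal axis, %) called higher (red, to the right) or lower (blue, to the left) with 3-IAA in each list, with the number tested in brackets; dotted lines mark the shares over all 15576 genes. Peroxins stay within the dotted lines on both sides; every other list shown extends beyond the line on the right except that of PPARA, its partners and targets, which extends beyond the line on the left.

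In the authors' deposited table of their own comparison, all 36 genes had the same sign of log2 fold change as here, differing by at most 0.0057. That table marks 10 of them Up, 3 Down and 23 Stable. By its adjusted p alone 24 were under 0.05, the same 24 that were called here.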

How the data were processed

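RNA of 6 libraries was sequenced. Per the submitters' processing notes, the tools were cutadapt 1.9, HISAT2 2.2.1, RSEM and DESeq2; what each did, the build, the gene models and the strand setting are not given in the sources used here. For each library the authors deposited expected counts (estimated reads per gene) and TPM; their group means were not used. The deposited comparison of the authors holds log2 fold changes, p-values, a test score and a mean signal per gene, of which the fold changes, the adjusted p-values and the marks were read. Expected counts with a fractional part (anything above 0) occur for 13 of the 36 genes, as where reads are split between loci. Another 2 lines of the count file were emptied and were not analysed here.

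After rounding of the expected counts, the two-sided robust quasi-likelihood test of edgeR 4.0.16 (R 4.3.3) was fitted to the 6 libraries with TMM scaling on the 15576 genes that filterByExpr kept. A call is a Benjamini-Hochberg adjusted p under 0.05 over all of these. Fold changes put PA + 3-IAA over PA + DMSO, an SE is the absolute log2 fold change divided by the root of F, and CPM are on TMM library sizes. A count of 3 is 0.133 to 0.181 CPM when divided by the total counts without TMM scaling, which covers counting error only. Alternatives were DESeq2 1.42.0, limma 3.58.1 with voom, RLE scaling, library totals as the scale, no filter, a filter of 1 CPM in all libraries, a replicate block, and leaving out 1 library at a time. The 36 genes and all lists were chosen with earlier results of these data known. Of the 134 entries of the other 10 lists, 130 were matched by name. All 36 genes are described. Of other lists up to 4 genes with the smallest p in each direction were named. Of marker lists only some of the genes of highest or lowest mean TPM were named, and SOX9, CD79A and NKG7 besides. In the PPARA list all called falls were named as well, and all genes called higher only without PA + DMSO replicate 3, ANGPTL4 among them. Locus overlaps come from RefSeq ARS-UCD2.0, in which 9 of the 36 overlap another annotated locus; its coordinates were not used further.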

Additional observations from a re-analysis of the deposited data

How the results depend on the processing

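Of the 24 calls, 21 kept their direction and their side of the threshold under all 13 alternatives that gave a value; the exceptions were AGPS, CROT and DAO, whose values stand in the report. HAO1 was not tested under the strict filter. Over the leave-one-out fits the enzymes called higher numbered 14 to 16 and those called lower 2 to 3, with medians of 0.49 to 0.59. The peroxin median, 0.053 over the 6 libraries, was 0.12 with scaling by library total and 0.010 to 0.069 over the leave-one-out fits, and the cause was not tested. The sign turned only for genes that were not called: PEX11A had 0.027 with scaling by library total and 0.012 without PA + DMSO replicate 1, HAO1 0.017 without PA + DMSO replicate 3, and PXMP2 -0.12 without PA + 3-IAA replicate 2 and -0.012 without PA + DMSO replicate 2 (the cause was not tested). Leave-one-out values ran -0.11 to 0.012 for PEX11A, -0.35 to 0.017 for HAO1 and -0.12 to 0.13 for PXMP2. With the replicate number as a block, CROT was lost (log2 0.18), leaving 15 enzymes higher and 3 lower, and 3 peroxins higher and 2 lower. The labels do not say that the numbers pair samples: deviations of same-numbered libraries correlated at 0.018 to 0.029, although each of the 6 libraries correlated best with its own number. Counts were low for HAO1 (12 to 26 per library) and for DAO, PIPOX and DDO (33 to 129), which limits what can be detected in them.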
